A study of Mus musculus with 16 samples.

Results

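The salt by LPS interaction was measured for each gene as the difference between LPS effects, the log2 change from LPS at 450 mOsm/L minus the log2 change from LPS at 290 mOsm/L. The same number is the salt effect in cells given LPS minus the salt effect in cells without it. All 16 arrays of the series enter it. They hold 20646 probe sets that name 1 gene, of 22549 in the table, and 10236 genes were tested after a filter on dim probe sets. A positive interaction means that LPS raised a gene more, or lowered it less, at 450 mOsm. The 2161 genes that passed limma's test (Benjamini-Hochberg adjusted p under 0.05) were then separated by the level at which salt moved them: without LPS, with LPS or both.

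C57BL/6 mice provided bone marrow, which was cultured as dendritic cells in GM-CSF (10 ng/mL), a growth factor of myeloid cells. The medium stayed at 290 mOsm/L or, from day 3, had NaCl added to reach 450 mOsm/L. After collection on day 7 the cells were plated for 6 h without LPS or with LPS at 10 ng/mL. This gives 4 groups of 4 arrays, named by osmolarity and by whether LPS was given, and per the labels the same 4 mice, C57BL/6 animals in every group, gave cells to each group. All groups share the GM-CSF culture and the 6 h plating. The labels do not say that the cultures of a mouse were handled apart, so p-values measure the spread between these 16 arrays.

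LPS, a cell wall component of Gram-negative bacteria, binds Cd14 and the Tlr4 receptor complex and signals through MyD88 and TRIF to NF-kB, AP-1 and interferon regulatory factors. Cells in high salt use the transcription factor Nfat5 to induce carriers of small organic solutes, and Nfat5 is also known to act on inflammatory genes in macrophages. A stimulus by stimulus interaction shows whether the response to LPS had a different size in cells grown in high salt, which neither salt effect alone gives.

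The median log2 value of an array was 6.78 at the lowest and 6.93 at the highest. The median interaction over all tested genes was -0.0035. LPS effects were called for 73.5% of tested genes at 290 mOsm and 71.8% at 450 mOsm, and salt effects for 44.3% without LPS and 38.6% with LPS. The class II genes H2-Aa, H2-Ab1 and H2-Eb1 and the integrin Itgax were bright on every array, with log2 levels from 11.29 to 13.44. Of 21 markers in the dendritic cell list, 16 passed the filter, 4 lay under it and 1 had no single-gene probe set. The 4 given next were dim or near the filter level, and they do not stand for the whole list. Xcr1 lay between 5.42 and 6.25 and Cd209a between 5.67 and 6.48, both under the filter level of 6.83 on every array, while Flt3 lay between 5.96 and 7.49 and Zbtb46 between 6.68 and 7.51. In bulk RNA, fewer cells of a type and less RNA per cell cannot be told apart.

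The interaction was called for 2161 of 10236 genes, which is 21.1%. It was positive for 1097 (10.7%) and negative for 1064 (10.4%), and 105 positive and 89 negative genes reached a log2 difference of 1. All 4 mice gave the sign of the fitted value for 2116 of the 2161. The 2161 were chosen by p-value on these same arrays, so the shared sign is no separate support. Without the 4 arrays of mouse 2 the count was 1383. For 49 called genes the sign turned when the same difference was taken on the linear scale, so the direction of these depends on the scale, and those named below are marked.

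Interactions placed at either level were about as many. The salt effect was called only in cells without LPS for 764 genes (7.46%), 411 with a positive and 353 with a negative interaction. It was called only in cells with LPS for 690 (6.74%), 324 positive and 366 negative. In 302 genes (2.95%) salt moved the level at both, in opposite directions. Another 189 (1.85%) moved in 1 direction at both with the larger change without LPS, and 164 (1.60%) with the larger change with LPS, and 52 had neither salt effect called. Of the 194 genes past a log2 difference of 1, 59 were in the opposite class, 52 in the class without LPS and 46 in the class with LPS. Without mouse 2, 503 genes were placed at the level without LPS, 517 at the level with LPS and 328 at both, against 764, 690 and 655.

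**Figure D1:**
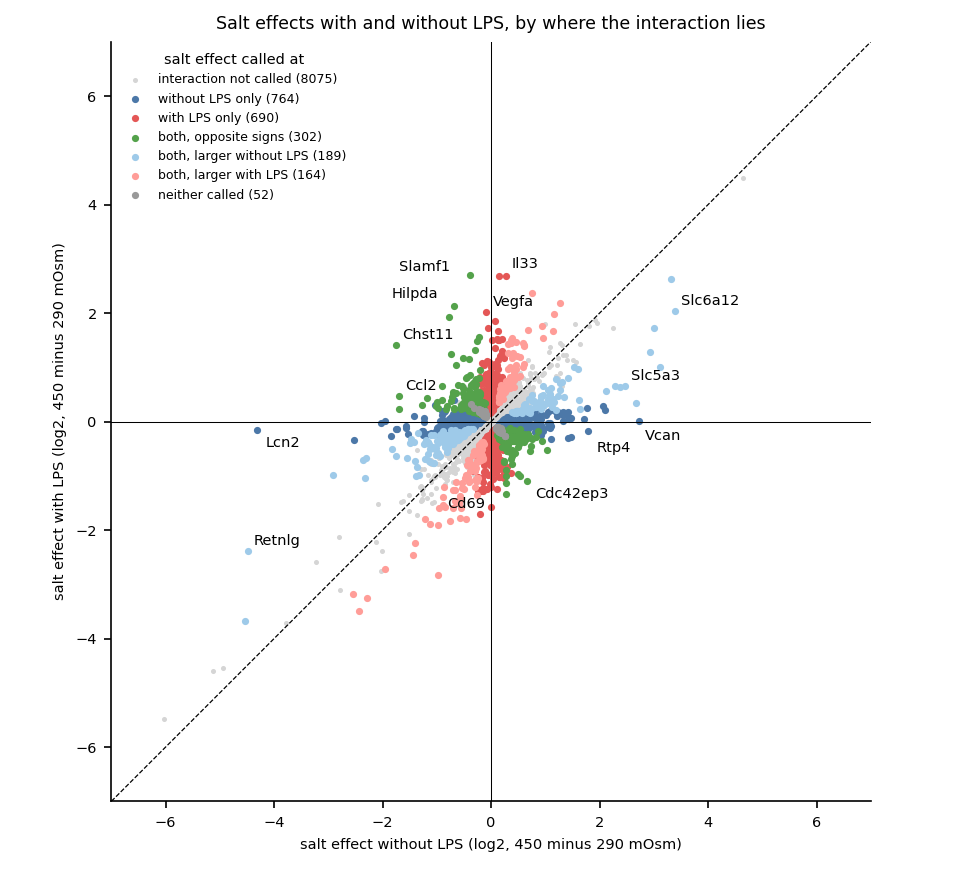
Each point is a tested gene, placed by its salt effect (log2, 450 minus 290 mOsm) in cells without LPS on the x axis and with LPS on the y axis, coloured by the level at which salt was called. Genes on the dashed diagonal have no interaction. The 764 genes called without LPS lie along the x axis, the 690 called with LPS along the y axis, and the 302 of opposite sign in the upper left and lower right.

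Interferon-stimulated genes fell mostly in the class without LPS. These genes encode antiviral effectors and are switched on by type I interferon, which LPS-treated myeloid cells make. Of 39 tested members of this list, 34 had a negative interaction and 0 a positive one, against 10.4% negative over all tested genes, and the list's median interaction was -0.77 against -0.0035. Salt alone raised 34 of the 39 (20.6% of all tested genes were raised), and LPS raised all 39 at either osmolarity. For LPS, effects of either sign were called for 73.5% of all tested genes at 290 mOsm and 71.8% at 450 mOsm. In cells with LPS salt raised 4 (16.8% of all tested genes) and lowered 7 (21.8%). The interaction was placed at the level without LPS for 25 of the 34, at the level with LPS for 2, at both in opposite directions for 4 and larger without LPS for 3.

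Ifit1, an antiviral RNA-binding protein, and Stat2, a subunit of the factor that interferon receptors activate, are shown here because their promoter windows carry the interferon-stimulated response element. Both were picked after their values were seen. The motif searched was GAAANNGAAA on both strands, in 250 bases before to 50 bases after each RefSeq start site of GRCm38.p6. Of 39 tested list genes 27 had a window, and 14 of these (51.9%) held the motif, against 3.92% of 8256 tested genes with a window and 3.44% of all 32851 windows. The 250 bases upstream are printed on the gene's strand, with the matches in capitals, for Ifit1 (chr19:34640639-34640888, plus strand) and Stat2 (chr10:128270248-128270497, plus strand).
Ifit1: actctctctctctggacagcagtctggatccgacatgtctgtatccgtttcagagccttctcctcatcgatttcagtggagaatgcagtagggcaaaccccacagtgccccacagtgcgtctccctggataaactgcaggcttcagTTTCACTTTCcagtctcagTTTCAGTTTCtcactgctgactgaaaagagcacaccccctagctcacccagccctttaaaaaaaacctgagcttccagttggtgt
Stat2: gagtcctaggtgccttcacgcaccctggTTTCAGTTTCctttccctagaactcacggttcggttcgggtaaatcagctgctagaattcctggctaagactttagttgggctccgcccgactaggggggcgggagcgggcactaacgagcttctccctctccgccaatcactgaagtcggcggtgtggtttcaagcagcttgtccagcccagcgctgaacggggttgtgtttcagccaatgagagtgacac
In both windows the capitals read as the motif on the opposite strand, and a match shows only that these letters are there. The log2 level of Ifit1 was 7.69 at 290 mOsm, 9.12 at 450 mOsm, 13.12 with LPS at 290 mOsm and 13.16 with LPS at 450 mOsm, an interaction of -1.39 ± 0.15 (SE, adjusted p = 2.43e-06). For Stat2 the interaction was -1.13 ± 0.13 (SE, adjusted p = 5.93e-06).

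Rtp4, an interferon-induced chaperone of membrane receptors, had log2 levels of 7.98, 7.71, 7.75 and 7.99 at 290 mOsm, 10.02, 9.74, 9.33 and 9.51 at 450 mOsm, 11.24, 11.28, 11.25 and 11.31 with LPS at 290 mOsm, and 11.15, 11.07, 11.06 and 11.08 with LPS at 450 mOsm. The 4 groups did not overlap, with 290 mOsm lowest, 450 mOsm next and both groups with LPS above them. The salt effect was 1.79 ± 0.11 without LPS, and with LPS it was -0.18 ± 0.11 and not called (adjusted p = 0.185). Its SD was 0.15 at 290 mOsm, 0.30 at 450 mOsm, 0.03 with LPS at 290 mOsm and 0.04 with LPS at 450 mOsm. The SE pools these spreads, so it is wide for the groups with LPS, and the uncalled salt effect there need not be 0. LPS raised Rtp4 by 3.41 ± 0.11 at 290 mOsm and 1.44 ± 0.11 at 450 mOsm (log2 ± SE), an interaction of -1.97 ± 0.15 (SE, adjusted p = 6.03e-08). Usp18, the protease that removes ISG15 and dampens the interferon receptor, had log2 levels of 8.35, 8.14, 8.12 and 8.26 at 290 mOsm, 9.95, 9.88, 9.39 and 9.57 at 450 mOsm, 12.70, 12.68, 12.60 and 12.67 with LPS at 290 mOsm, and 12.77, 12.75, 12.67 and 12.73 with LPS at 450 mOsm. All 4 arrays at 450 mOsm were above all 4 at 290 mOsm, while the arrays with LPS overlapped between osmolarities, and the interaction was -1.41 ± 0.13 (SE, adjusted p = 6.23e-07). Irf7, the factor that amplifies interferon production, gave -1.06 ± 0.14 (SE, adjusted p = 3.67e-05), with a salt effect of 1.04 ± 0.10 without LPS and -0.02 ± 0.10 with LPS. Ifitm3, which blocks virus entry, was raised by salt at both levels, by 1.64 ± 0.07 without LPS and 0.22 ± 0.07 with LPS. Ifih1, the cytosolic sensor of long double-stranded RNA, moved in opposite directions, 0.64 ± 0.07 without LPS and -0.33 ± 0.07 with LPS. The interferon beta gene Ifnb1 lay under the filter, between 5.43 and 6.17 on all arrays.

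Genes of class I antigen presentation were also negative where called. Of 17 tested, 8 were negative and 0 positive, against 10.4% and 10.7% of all tested genes, with a list median of -0.24. Of the 8, 4 were placed at the level without LPS. Nlrc5, the transactivator of class I genes, gave -1.05 ± 0.10 (SE, adjusted p = 8.88e-07) from a salt effect of 0.93 ± 0.07 without LPS and -0.12 ± 0.07 with LPS. Tap1, a subunit of the peptide transporter, gave -0.64 ± 0.11 (SE, adjusted p = 0.000479). Among 10 class II genes 1 was called, Ciita, the class II transactivator, at -0.60 ± 0.14 (SE, adjusted p = 0.00554). It was not called without mouse 1 (adjusted p = 0.066). Signals near the top of the array scale are compressed, and 6 of the 39 interferon-stimulated genes had a group mean above 13 with LPS, where the highest value in the table was 14.3. Of the 34 called, 31 kept a negative sign on the linear scale.

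**Figure D2:**
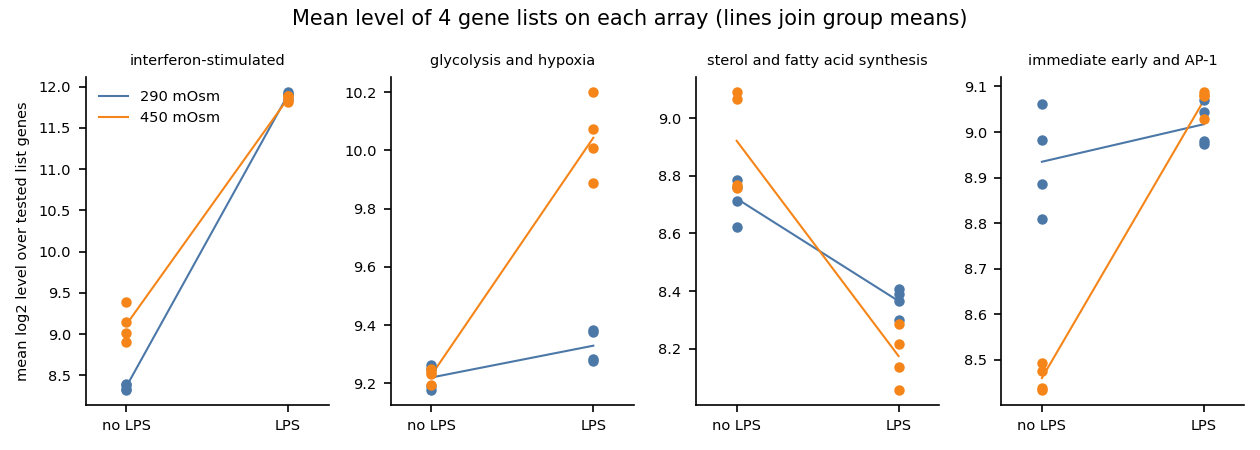
The mean log2 level over the tested genes of each of 4 lists is plotted for every array, without and with LPS on the x axis, at 290 mOsm in blue and 450 mOsm in orange, with lines between group means. The interferon-stimulated mean lay between 8.33 and 8.39 at 290 mOsm and between 8.91 and 9.39 at 450 mOsm without LPS, and the osmolarities overlapped with LPS. The glycolysis and hypoxia mean overlapped without LPS and separated with it, at 9.28 to 9.38 against 9.89 to 10.2.

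Genes of glycolysis and the hypoxia response had positive interactions where called, and none of these was placed at the level without LPS alone. Hypoxia-inducible factor switches these genes on when oxygen is low, and LPS is known to induce it in myeloid cells. Of 33 tested, 20 had a positive interaction and 0 a negative one, against 10.7% positive over all tested genes, with a list median of 0.50. Salt raised 26 of the 33 and lowered 1 in cells with LPS, where 16.8% of all tested genes rose and 21.8% fell. In cells without LPS it raised 9 and lowered 8, near the 20.6% and 23.7% of all tested genes. The 20 were placed at the level with LPS for 8, at both in opposite directions for 6 and at both but larger with LPS for 6, so 12 of the 20 also had a salt effect called without LPS. LPS raised 14 and lowered 13 of the 33 at 290 mOsm, and raised 24 and lowered 5 at 450 mOsm. Of all tested genes 73.5% and 71.8% had a called LPS effect of either sign, and their split by sign was not counted.

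Windows of this list were searched for the core of the hypoxia response element, ACGTG, on both strands, because its members moved together. The letters also lie inside the E-box CACGTG, so a match need not be a hypoxia element. Of 33 tested list genes 30 had a window, and 24 of these (80.0%) held the core, against 29.8% of the tested genes with a window and 19.6% of all windows. The 250 bases upstream of Slc2a1 (chr4:119108495-119108744, plus strand) and Bnip3 (chr7:138909507-138909756, minus strand) are printed on the gene's strand, with matches in capitals.
Slc2a1: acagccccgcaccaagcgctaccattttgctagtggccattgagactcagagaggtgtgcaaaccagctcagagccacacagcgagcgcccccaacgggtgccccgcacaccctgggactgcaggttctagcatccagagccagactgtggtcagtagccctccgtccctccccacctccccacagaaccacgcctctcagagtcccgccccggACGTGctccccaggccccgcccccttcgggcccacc
Bnip3: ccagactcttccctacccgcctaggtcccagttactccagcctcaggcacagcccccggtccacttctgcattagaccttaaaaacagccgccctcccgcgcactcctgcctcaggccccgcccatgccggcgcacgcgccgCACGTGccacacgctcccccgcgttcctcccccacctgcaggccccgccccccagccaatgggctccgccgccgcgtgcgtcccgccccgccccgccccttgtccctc
In Bnip3 the capitals are the E-box, which reads as the core on each strand.

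Vegfa, the vascular growth factor, had log2 levels of 9.85, 9.90, 9.64 and 9.74 at 290 mOsm, 9.58, 9.58, 9.76 and 9.84 at 450 mOsm, 7.75, 7.84, 7.75 and 7.90 with LPS at 290 mOsm, and 10.26, 9.73, 9.61 and 9.72 with LPS at 450 mOsm. Both groups without LPS and the group at 450 mOsm with LPS overlapped, and the 4 arrays at 290 mOsm with LPS were lower than all the rest. LPS changed Vegfa by -1.97 ± 0.11 at 290 mOsm (adjusted p = 1.17e-11) and by 0.14 ± 0.11 at 450 mOsm (adjusted p = 0.27), an interaction of 2.11 ± 0.15 (SE, adjusted p = 3.48e-08). Hilpda, an inhibitor of lipid droplet breakdown, had log2 levels of 7.97, 7.83, 7.68 and 7.70 at 290 mOsm, 6.94, 7.04, 7.25 and 7.19 at 450 mOsm, 7.40, 7.40, 7.30 and 7.41 with LPS at 290 mOsm, and 9.84, 9.36, 9.31 and 9.51 with LPS at 450 mOsm. The groups at 290 mOsm were both above that at 450 mOsm without LPS, and all 4 arrays at 450 mOsm with LPS were higher than every other array. Salt lowered Hilpda without LPS (-0.69 ± 0.10) and raised it with LPS (2.12 ± 0.10), an interaction of 2.82 ± 0.14 (SE, adjusted p = 4.85e-10).

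Slc2a1, the main glucose transporter of the cell surface, had log2 levels of 11.87, 12.10, 11.76 and 12.13 at 290 mOsm, 11.33, 11.35, 11.44 and 11.68 at 450 mOsm, 11.40, 11.33, 11.49 and 11.57 with LPS at 290 mOsm, and 12.85, 12.56, 12.43 and 12.63 with LPS at 450 mOsm. The arrays at 450 mOsm with LPS were the highest, those at 290 mOsm without LPS came next, and the other two groups overlapped. LPS lowered Slc2a1 at 290 mOsm (-0.52 ± 0.10) and raised it at 450 mOsm (1.17 ± 0.10), an interaction of 1.69 ± 0.14 (SE, adjusted p = 1.68e-07). Bnip3, which marks mitochondria for removal, gave 1.75 ± 0.15 (SE, adjusted p = 1.73e-07). Hif1a itself was raised by salt at both levels, by 0.58 ± 0.08 without LPS and 1.00 ± 0.08 with LPS, an interaction of 0.42 ± 0.11 (SE, adjusted p = 0.00919) that was not called without the arrays of mouse 2 (adjusted p = 0.104).

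Genes of sterol and fatty acid synthesis, which the factor Srebf2 and its relative Srebf1 control, had the opposite sign. Of 29 tested, 15 were negative and 0 positive, against 10.4% and 10.7% of all tested genes, with a list median of -0.46. Salt raised 12 and lowered 2 of them without LPS, against 20.6% and 23.7% of all tested genes. With LPS it raised 2 and lowered 15, against 16.8% and 21.8%. LPS lowered 18 at 290 mOsm and 26 at 450 mOsm, where LPS effects of either sign were called for 73.5% and 71.8% of all tested genes. Fasn, fatty acid synthase, had log2 levels of 8.55, 8.66, 8.45 and 8.54 at 290 mOsm, 9.43, 9.24, 9.16 and 9.04 at 450 mOsm, 7.85, 7.90, 7.74 and 7.83 with LPS at 290 mOsm, and 7.48, 7.67, 7.73 and 7.50 with LPS at 450 mOsm. Its arrays were highest at 450 mOsm without LPS, and both groups with LPS were below both groups without. Its interaction was -0.91 ± 0.11 (SE, adjusted p = 1.06e-05), from a salt effect of 0.67 ± 0.08 without LPS and -0.24 ± 0.08 with LPS. Hmgcs1, which starts the mevalonate pathway, was lowered by salt at both levels, with effects of -0.30 ± 0.08 without LPS and -1.07 ± 0.08 with LPS, and gave -0.77 ± 0.12 (SE, adjusted p = 0.000133). Msmo1, a demethylase of sterol synthesis, gave -0.78 ± 0.13 (SE, adjusted p = 0.000248), with the change placed at the level with LPS, and Sc5d, a desaturase of the same route, gave -0.84 ± 0.13 (SE, adjusted p = 0.000189).

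Cell cycle genes were negative where called, but for 1. Of 30 tested, 10 were negative and 1, Pcna, was positive, against 10.4% and 10.7% of all tested genes, with a list median of -0.25. Kif11, a motor of the mitotic spindle, gave -0.95 ± 0.13 (SE, adjusted p = 3.52e-05), placed at the level with LPS, where its arrays at 450 mOsm were under the filter level. Aurkb, a mitotic kinase, gave -0.73 ± 0.11 (SE, adjusted p = 8.94e-05), placed at the level without LPS, and Plk1, another, gave -0.70 ± 0.11 (SE, adjusted p = 0.000111), with salt effects of opposite sign. Ccna2, a cyclin of DNA replication and mitosis, gave -0.73 ± 0.15 (SE, adjusted p = 0.00207), placed at the level with LPS. With the stricter filter 19 of these genes remained and 6 were negative.

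**Figure D3:**
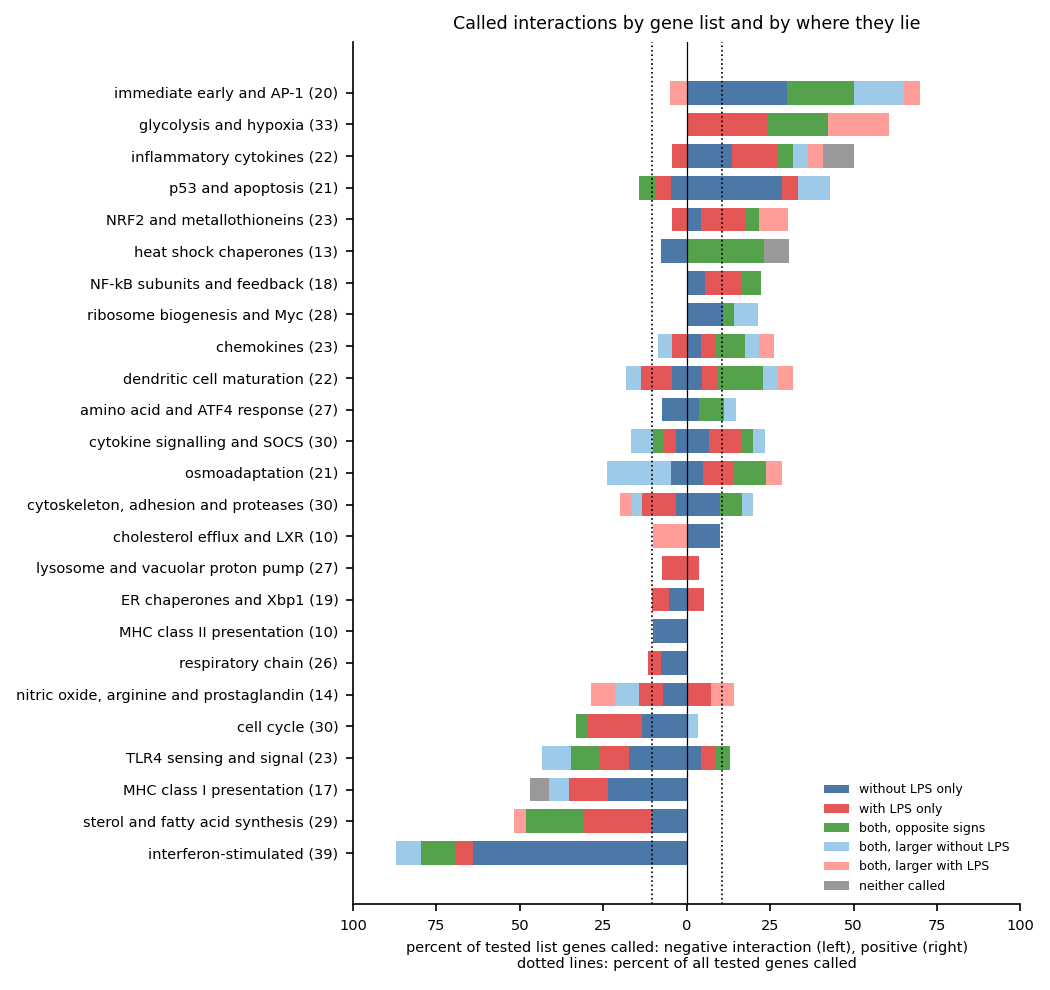
Bars give the percent of tested genes of each list (number tested in brackets) whose interaction was called negative, to the left, or positive, to the right, coloured by where it lies, and dotted lines give the percent over all tested genes, 10.4 and 10.7. The interferon-stimulated list reaches farthest to the left and is mostly dark blue, and glycolysis and hypoxia has no dark blue.

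Immediate early genes and AP-1 subunits, which respond to stimuli within minutes, were mostly positive. Of 20 tested, 14 were positive and 1, the phosphatase Dusp2, was negative, against 10.7% and 10.4% of all tested genes, with a list median of 0.49. Salt alone lowered 16 of the 20 and raised 1, against 23.7% and 20.6% of all tested genes. With LPS it raised 5 and lowered 6, against 16.8% and 21.8%. The 15 called were placed as 6 at the level without LPS, 4 at both in opposite directions, 3 larger without LPS and 2 larger with LPS. Fosl1, an AP-1 subunit, had log2 levels of 7.72, 7.95, 7.75 and 8.07 at 290 mOsm, 7.46, 7.52, 7.46 and 7.47 at 450 mOsm, 7.67, 7.71, 7.97 and 7.96 with LPS at 290 mOsm, and 8.90, 8.79, 8.45 and 8.62 with LPS at 450 mOsm. The 4 arrays at 450 mOsm with LPS were above all others, and the arrays at 290 mOsm without LPS overlapped those at 290 mOsm with LPS. LPS raised Fosl1 by 1.21 ± 0.10 at 450 mOsm, and at 290 mOsm its effect of -0.05 ± 0.10 was not called (adjusted p = 0.675). Its relative Fosl2 was lowered by LPS at 290 mOsm (-0.43 ± 0.06) and raised at 450 mOsm (0.72 ± 0.06), an interaction of 1.16 ± 0.09 (SE, adjusted p = 9.02e-08). Egr1, an early growth response factor, gave 1.10 ± 0.14 (SE, adjusted p = 2.47e-05), and Dusp1, which switches off p38 and JNK kinases, gave 0.95 ± 0.14 (SE, adjusted p = 6.11e-05).

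On the sensing side of the pathway the called genes were mostly negative. Of 23 genes of TLR4 sensing and signal, 10 were negative and 3 positive, against 10.4% and 10.7% of all tested genes, with a list median of -0.17. Without mouse 2 the counts were 7 and 1. Tlr4, the receptor, had log2 levels of 9.88, 9.65, 9.72 and 9.46 at 290 mOsm, 10.31, 10.14, 10.30 and 9.98 at 450 mOsm, 9.31, 9.12, 9.32 and 9.30 with LPS at 290 mOsm, and 8.85, 8.90, 8.87 and 8.80 with LPS at 450 mOsm. Salt raised it without LPS (0.51 ± 0.08) and lowered it with LPS (-0.41 ± 0.08), with no overlap of the osmolarities at either level, and the interaction was -0.91 ± 0.12 (SE, adjusted p = 2.34e-05). Cd14, its LPS-binding co-receptor, was raised by salt at both levels, by 0.96 ± 0.06 without LPS and 0.28 ± 0.06 with LPS, and gave -0.68 ± 0.09 (SE, adjusted p = 1.54e-05). The kinases Ikbke and Map3k8 gave -0.53 ± 0.08 (SE, adjusted p = 0.00018) and -0.51 ± 0.08 (SE, adjusted p = 0.00021), both placed at the level without LPS. Among 18 NF-kB subunits and feedback genes, 4 were positive and 0 negative, and the rest, including Rela and Nfkbia, were not called. The share called, 22.2%, was near the 21.1% of all tested genes. The largest was Tnfaip3, the A20 enzyme that limits NF-kB signalling, at 1.30 ± 0.14 (SE, adjusted p = 4.11e-06), with salt effects of -0.91 ± 0.10 without LPS and 0.40 ± 0.10 with LPS.

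Cytokine genes were mostly positive where called. Of 22 tested, 11 were positive and 1, Il12a, was negative, against 10.7% and 10.4% of all tested genes, with a list median of 0.38. Il33, an alarmin of the IL-1 family, had log2 levels of 4.61, 4.69, 4.69 and 4.68 at 290 mOsm, 4.81, 4.93, 4.67 and 4.86 at 450 mOsm, 7.05, 7.29, 6.03 and 6.79 with LPS at 290 mOsm, and 9.73, 9.74, 8.95 and 9.45 with LPS at 450 mOsm. Levels without LPS were all under the filter level, those at 290 mOsm with LPS lay around it, and those at 450 mOsm with LPS were above every other array. Il33 passed the filter only with the arrays at 450 mOsm with LPS counted. LPS raised Il33 by 2.12 ± 0.20 at 290 mOsm and by 4.65 ± 0.20 at 450 mOsm, an interaction of 2.53 ± 0.28 (SE, adjusted p = 4.78e-06), and folds against such dim levels are understated.

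Il10, the anti-inflammatory cytokine, had log2 levels of 4.74, 4.67, 4.62 and 5.02 at 290 mOsm, 4.96, 4.70, 4.58 and 4.87 at 450 mOsm, 9.21, 8.93, 9.0 and 9.47 with LPS at 290 mOsm, and 10.76, 10.55, 10.81 and 10.51 with LPS at 450 mOsm. It was under the filter level without LPS, and with LPS the 4 arrays at 450 mOsm were above the 4 at 290 mOsm. The interaction was 1.49 ± 0.16 (SE, adjusted p = 4.13e-06). Il19, a relative of Il10, was under the filter level in the other groups and at 7.78 ± 0.17 (mean ± SD, n = 4) at 450 mOsm with LPS, an interaction of 1.78 ± 0.10 (SE, adjusted p = 2.63e-09). Il19 was tested only because the 4 arrays of that group passed the filter, so its call is no separate support for a high level there. Inhba, a subunit of activins, gave 1.54 ± 0.24 (SE, adjusted p = 0.000138), also placed at the level with LPS. Csf1, the macrophage growth factor, gave 1.52 ± 0.13 (SE, adjusted p = 2.13e-07) from a salt effect of -1.42 ± 0.09 without LPS and 0.10 ± 0.09 with LPS, so it was placed at the level without LPS. Il1rn, the IL-1 receptor antagonist, moved in opposite directions, -1.28 ± 0.07 without LPS and 0.30 ± 0.07 with LPS.

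Tnf, a first-wave inflammatory cytokine, gave 0.83 ± 0.20 (SE, adjusted p = 0.00641), placed at the level without LPS, and on the linear scale its sign was negative. Without mouse 2 it was not called (adjusted p = 0.0843). Il12b gave 0.71 ± 0.21 (SE, adjusted p = 0.0243), with no salt effect called at either level. This call was lost without replicate 1 or 4 at 290 mOsm, replicate 2 at 450 mOsm, replicate 3 at 290 mOsm with LPS or replicate 1 at 450 mOsm with LPS, with adjusted p between 0.0524 and 0.0558. It was also lost without mouse 1 (0.0936), mouse 2 (0.0861) or mouse 4 (0.106). Il6 gave 0.14 ± 0.12 (SE, adjusted p = 0.463) and Il1b 0.16 ± 0.23 (SE, adjusted p = 0.687), neither called. LPS raised Il6 by 7.62 ± 0.09 at 290 mOsm and 7.77 ± 0.09 at 450 mOsm.

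Of 23 chemokines, 6 were positive and 2 negative, against 10.7% and 10.4% of all tested genes. Ccl2, which recruits monocytes, had log2 levels of 9.79, 9.33, 8.83 and 9.05 at 290 mOsm, 7.42, 7.65, 7.54 and 7.61 at 450 mOsm, 11.75, 11.57, 11.48 and 11.64 with LPS at 290 mOsm, and 12.15, 12.08, 12.00 and 12.06 with LPS at 450 mOsm. Salt lowered it without LPS, with no overlap, and with LPS the group at 450 mOsm was higher, an interaction of 2.16 ± 0.19 (SE, adjusted p = 3.83e-07). Ccl7, its neighbour in function, gave 1.70 ± 0.14 (SE, adjusted p = 2.13e-07) with salt effects of -0.66 ± 0.10 and 1.05 ± 0.10. Cxcl1, which attracts neutrophils, gave 1.05 ± 0.19 (SE, adjusted p = 0.000564), placed at the level with LPS. Ccl17, a ligand of Ccr4 made by dendritic cells, gave -2.11 ± 0.43 (SE, adjusted p = 0.00147), with mean log2 levels of 8.19 at 290 mOsm, 11.30 at 450 mOsm, 12.29 with LPS at 290 mOsm and 13.29 with LPS at 450 mOsm. On the linear scale the sign of Ccl17 was positive. Cxcl9, a ligand of Cxcr3, gave -1.03 ± 0.11 (SE, adjusted p = 3.24e-06), placed at the level with LPS, and Cxcl10, another, gave -0.53 ± 0.23 (SE, adjusted p = 0.124), which was not called.

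Dendritic cell maturation genes went both ways, 7 positive and 4 negative of 22, against 10.7% and 10.4% of all tested genes. LPS raised all 22 at either osmolarity. An LPS effect of either sign was called for 73.5% of all tested genes at 290 mOsm and 71.8% at 450 mOsm. Slamf1, a self-ligand receptor of the SLAM family, had log2 levels of 5.76, 5.59, 5.50 and 5.55 at 290 mOsm, 5.13, 5.31, 5.10 and 5.29 at 450 mOsm, 7.56, 7.81, 7.01 and 7.72 with LPS at 290 mOsm, and 10.34, 10.09, 10.27 and 10.22 with LPS at 450 mOsm. Levels without LPS were dim, and with LPS the arrays at 450 mOsm were far above those at 290 mOsm. LPS raised Slamf1 by 1.93 ± 0.12 at 290 mOsm and 5.02 ± 0.12 at 450 mOsm, an interaction of 3.09 ± 0.18 (SE, adjusted p = 2.63e-09). Tnfrsf9, the costimulatory receptor 4-1BB, gave 1.62 ± 0.19 (SE, adjusted p = 6.31e-06), and Cd80, a ligand of Cd28, gave 1.06 ± 0.09 (SE, adjusted p = 2.13e-07). Cd69, an early activation marker, had log2 levels of 5.99, 6.61, 5.66 and 6.08 at 290 mOsm, 6.67, 6.22, 6.11 and 5.78 at 450 mOsm, 12.33, 12.07, 12.07 and 12.05 with LPS at 290 mOsm, and 10.99, 10.91, 10.70 and 10.92 with LPS at 450 mOsm. With LPS the groups did not overlap, and 450 mOsm was lower, an interaction of -1.36 ± 0.24 (SE, adjusted p = 0.000474). Cd200, a glycoprotein that restrains myeloid cells, moved in opposite directions, -0.55 ± 0.10 without LPS and 0.30 ± 0.10 with LPS. Cd40, the receptor through which T cells license dendritic cells, gave -0.35 ± 0.10 (SE, adjusted p = 0.0139), which was not called without mouse 1, 2 or 3 (adjusted p between 0.0639 and 0.0911). Cd86 gave 0.40 ± 0.16 (SE, adjusted p = 0.0926) and was not called, while a fit that took the mouse as replicate block called it (adjusted p = 0.0354), as did the fit without replicate 3 at 290 mOsm (adjusted p = 0.005).

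**Figure D4:**
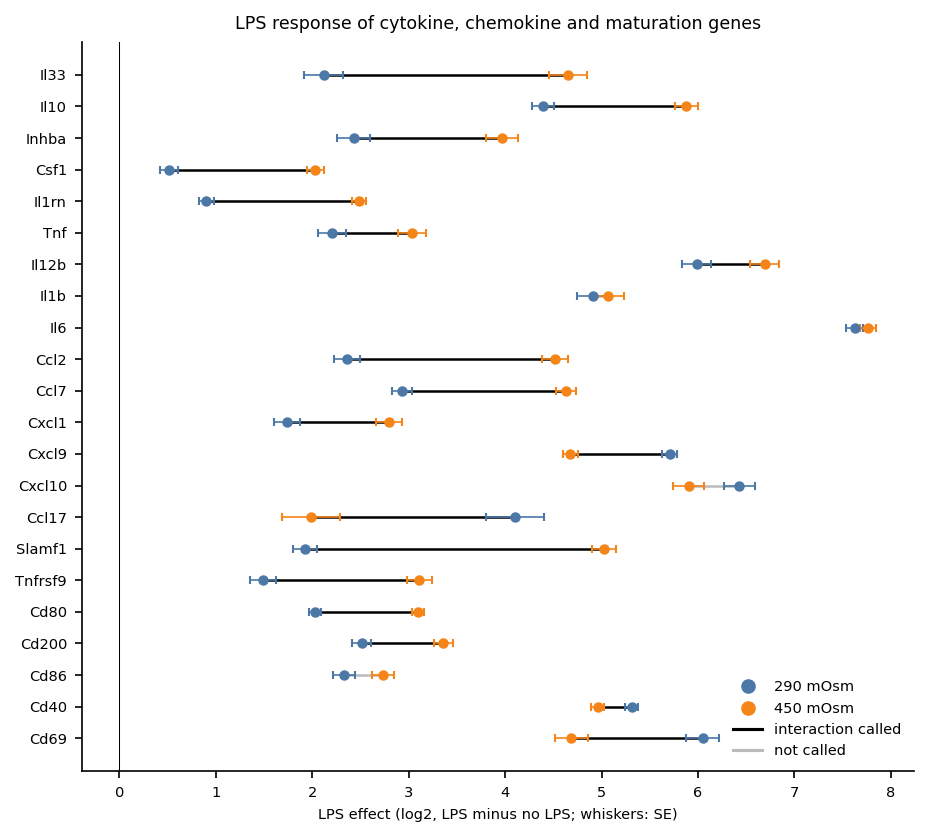
For each gene the LPS effect (log2, LPS minus no LPS) is drawn at 290 mOsm in blue and at 450 mOsm in orange, with SE whiskers, joined by a black line where the interaction was called and a grey one where it was not. Slamf1 and Il33 have the widest gaps, orange to the right, and Ccl17, Cd69, Cxcl9, Cxcl10 and Cd40 have orange to the left.

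Osmoadaptation genes were split, 6 positive and 5 negative of 21 tested, against 10.7% and 10.4% of all tested genes. Slc5a3, the myo-inositol transporter and a target of Nfat5, had log2 levels of 6.89, 6.75, 6.89 and 6.90 at 290 mOsm, 9.23, 9.06, 9.60 and 9.42 at 450 mOsm, 6.73, 6.86, 6.74 and 6.63 with LPS at 290 mOsm, and 7.48, 7.39, 7.23 and 7.46 with LPS at 450 mOsm. Salt raised it in both states with no overlap, and the arrays at 450 mOsm without LPS were the highest. LPS lowered Slc5a3 at 450 mOsm (-1.94 ± 0.09) and was not called at 290 mOsm (-0.12 ± 0.09, adjusted p = 0.245), an interaction of -1.82 ± 0.13 (SE, adjusted p = 2.58e-08). Slc6a12, the betaine transporter, gave -1.35 ± 0.10 (SE, adjusted p = 6.03e-08), since LPS raised it at 290 mOsm (1.27 ± 0.07) and was not called at 450 mOsm (-0.07 ± 0.07). The taurine transporter Slc6a6 gave -0.13 ± 0.06 (SE, adjusted p = 0.158) and was not called. Nfat5 was raised by salt with LPS (0.64 ± 0.09) and was not called without it (-0.03 ± 0.09), an interaction of 0.67 ± 0.13 (SE, adjusted p = 0.000696). Nfat5 thus had a positive interaction while its targets Slc5a3 and Slc6a12 had negative ones.

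Among 23 genes of NRF2 and metallothioneins, 7 were positive and 1, Slc30a1, was negative, against 10.7% and 10.4% of all tested genes. Hamp, the iron hormone hepcidin, had log2 levels of 5.77, 5.63, 6.11 and 5.64 at 290 mOsm, 6.13, 5.96, 5.68 and 6.50 at 450 mOsm, 7.41, 7.57, 7.61 and 6.55 with LPS at 290 mOsm, and 10.23, 10.06, 9.78 and 9.78 with LPS at 450 mOsm. It was dim without LPS and highest at 450 mOsm with LPS, with no overlap with the other groups, and the interaction was 2.40 ± 0.29 (SE, adjusted p = 1.09e-05). Hamp passed the filter only with the arrays at 450 mOsm with LPS counted. Slc39a14, a zinc and iron importer, gave 1.61 ± 0.10 (SE, adjusted p = 1.13e-08). The metal-binding proteins Mt1 and Mt2 gave 0.95 ± 0.07 (SE, adjusted p = 7.37e-08) and 0.93 ± 0.14 (SE, adjusted p = 9.60e-05), both larger with LPS. In lipid mediator synthesis Alox5, the leukotriene enzyme, gave -1.28 ± 0.16 (SE, adjusted p = 1.57e-05), and Ptges, the prostaglandin E synthase, gave 1.00 ± 0.17 (SE, adjusted p = 0.00033), both placed at the level with LPS.

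In 140 genes (1.37%) LPS was called in opposite directions at the 2 osmolarities. All 140 had a called interaction, which follows from 2 called effects of opposite sign in 1 fit and is no separate result. LPS lowered 88 of the 140 at 290 mOsm and raised them at 450 mOsm, and did the reverse in 52. Chst11, a chondroitin sulfotransferase, had log2 levels of 10.68, 10.74, 10.30 and 10.65 at 290 mOsm, 8.51, 8.77, 8.95 and 9.13 at 450 mOsm, 9.58, 9.40, 9.23 and 9.33 with LPS at 290 mOsm, and 10.85, 10.70, 10.79 and 10.84 with LPS at 450 mOsm. The arrays at 290 mOsm without LPS overlapped those at 450 mOsm with LPS, and both other groups were lower. LPS lowered Chst11 at 290 mOsm (-1.21 ± 0.11) and raised it at 450 mOsm (1.96 ± 0.11), an interaction of 3.16 ± 0.16 (SE, adjusted p = 5.37e-10). Gpr183, the oxysterol receptor that guides dendritic cells, went from -1.31 to 1.38, an interaction of 2.70 ± 0.18 (SE, adjusted p = 1.13e-08).

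Cdc42ep3, an effector of the GTPase Cdc42, had log2 levels of 7.55, 7.26, 7.34 and 7.36 at 290 mOsm, 8.32, 8.04, 7.94 and 7.86 at 450 mOsm, 8.16, 7.79, 7.93 and 7.77 with LPS at 290 mOsm, and 6.71, 6.87, 6.84 and 6.83 with LPS at 450 mOsm. The arrays at 450 mOsm without LPS and 290 mOsm with LPS overlapped as the highest, and those at 450 mOsm with LPS were the lowest. LPS raised it at 290 mOsm (0.53 ± 0.10) and lowered it at 450 mOsm (-1.23 ± 0.10). The chaperones Dnajb4 and Hsph1 were lowered by LPS at 290 mOsm and raised at 450 mOsm, with interactions of 1.55 ± 0.12 (SE, adjusted p = 6.03e-08) and 0.84 ± 0.08 (SE, adjusted p = 9.32e-07). Ceacam1, an adhesion receptor, was raised by LPS at 290 mOsm (0.41 ± 0.09) and lowered at 450 mOsm (-0.99 ± 0.09), an interaction of -1.39 ± 0.13 (SE, adjusted p = 7.81e-07). Itga1, a collagen-binding integrin subunit, was raised by salt without LPS (1.03 ± 0.11) and lowered with it (-0.52 ± 0.11), and Tifab, an inhibitor of Traf6 signalling, likewise (0.27 ± 0.10 and -1.34 ± 0.10). Pde5a, a phosphodiesterase of cyclic GMP, went the other way, with -0.74 ± 0.10 without LPS and 1.25 ± 0.10 with LPS, an interaction of 1.99 ± 0.14 (SE, adjusted p = 2.36e-08). Slc28a2, a nucleoside carrier, gave 1.79 ± 0.19 (SE, adjusted p = 2.25e-06), placed at the level with LPS. Mmp13, a collagenase, gave 1.93 ± 0.11 (SE, adjusted p = 2.63e-09), and Timp1, an inhibitor of such enzymes, gave 1.56 ± 0.21 (SE, adjusted p = 3.15e-05).

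**Figure D5:**
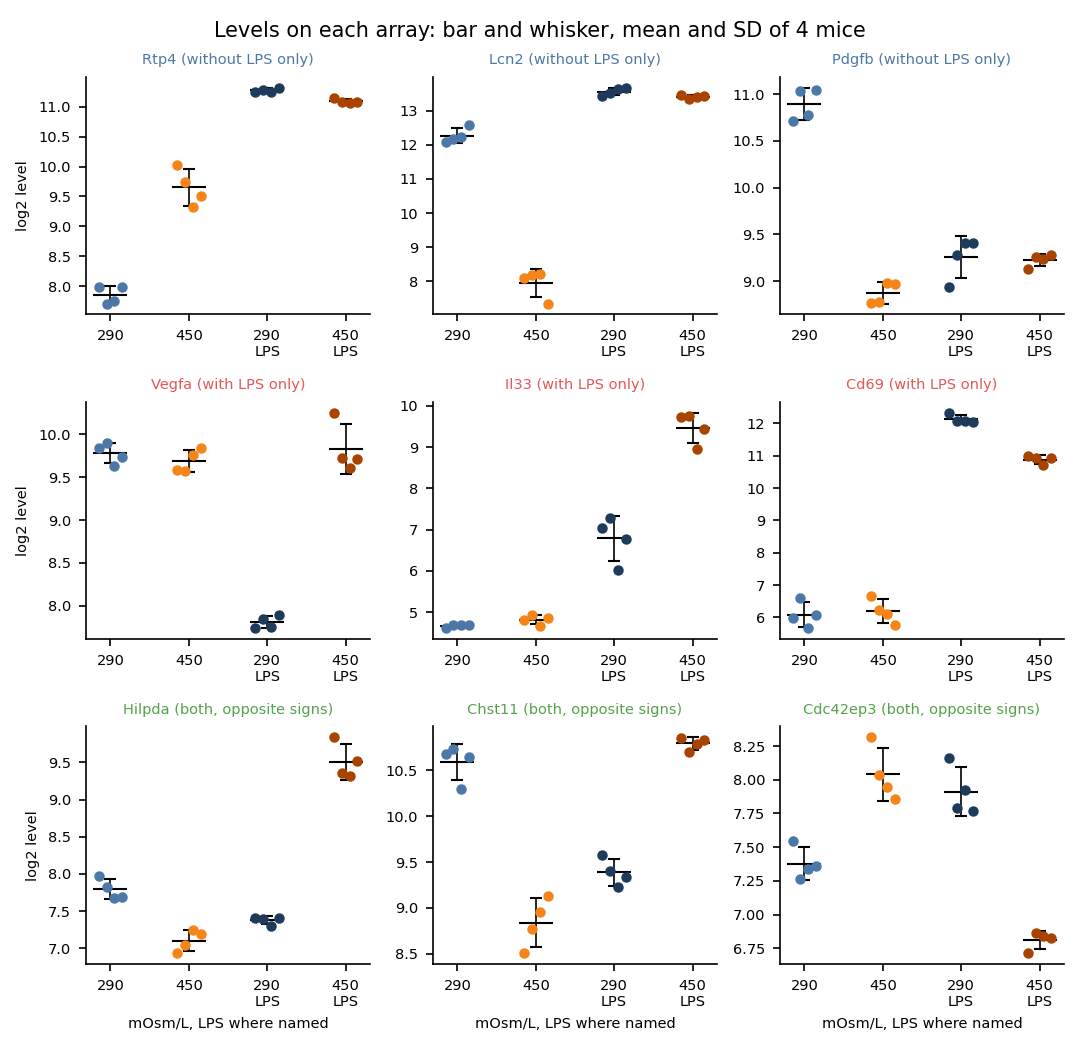
Log2 levels on each of the 4 arrays of every group are drawn for 9 genes, with a bar at the mean and whiskers of 1 SD. In the top row the osmolarities differ without LPS, in the middle row with LPS, and in the bottom row salt moved the gene in opposite directions.

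The largest positive interaction was that of Lcn2, lipocalin 2, a protein that neutrophils and LPS-treated myeloid cells release to bind bacterial siderophores. Its log2 levels were 12.08, 12.18, 12.23 and 12.58 at 290 mOsm, 8.09, 8.18, 8.22 and 7.34 at 450 mOsm, 13.43, 13.52, 13.65 and 13.66 with LPS at 290 mOsm, and 13.48, 13.35, 13.39 and 13.42 with LPS at 450 mOsm. The arrays at 450 mOsm without LPS were far below the rest, and with LPS the osmolarities overlapped. LPS raised Lcn2 by 1.30 ± 0.15 at 290 mOsm and 5.45 ± 0.15 at 450 mOsm, an interaction of 4.16 ± 0.21 (SE, adjusted p = 4.85e-10). Lcn2 is also a neutrophil marker, and neutrophil markers moved with salt. Over 22 markers, the log2 of the summed linear level was 14.8 to 15.2 at 290 mOsm, 12.6 to 12.8 at 450 mOsm, 15.3 to 15.6 with LPS at 290 mOsm and 14.01 to 14.09 with LPS at 450 mOsm. Without Lcn2 the sum was 12.6 to 12.7 at 450 mOsm and 12.6 to 12.7 at 450 mOsm with LPS. Of 21 tested markers salt lowered 20 without LPS and 18 with LPS, against 23.7% and 21.8% of all tested genes. The interaction was called for 7 of the 21, 4 positive and 3 negative, against 21.1% of all tested genes. Retnlg, a neutrophil marker, had log2 levels of 9.99, 9.26, 10.28 and 10.71 at 290 mOsm, 5.49, 5.89, 5.21 and 5.69 at 450 mOsm, 7.63, 7.67, 8.19 and 8.51 with LPS at 290 mOsm, and 5.43, 5.46, 5.98 and 5.56 with LPS at 450 mOsm. Both groups at 450 mOsm were lower than both groups at 290 mOsm and overlapped each other. All 8 values at 450 mOsm lay under the filter level, where a change from LPS could not be seen. The interaction of 2.09 ± 0.35 (SE, adjusted p = 0.000268) therefore restates the LPS effect at 290 mOsm, -2.06 ± 0.25. The part of neutrophil markers in the interactions above was not tested.

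Among other marker lists, the interaction was called for 4 of 16 dendritic cell, 2 of 15 macrophage, 2 of 8 plasmacytoid dendritic cell, 2 of 6 mast cell and 1 of 4 fibroblast markers. Against 21.1% of all tested genes these shares, of a few genes each, set none of these lists apart. Monocyte markers are given below. By limma 0 of 4 erythroid and 0 of 3 lymphocyte markers were called, with 0 and 1 at an unadjusted p under 0.05. Several of the summed levels moved with salt or LPS, and their part in the interactions was not tested. On the log2 scale the mast cell sum was 10.4 to 11.1 at 290 mOsm, 9.81 to 9.89 at 450 mOsm, 11.4 to 12.1 with LPS at 290 mOsm and 10.8 to 11.02 with LPS at 450 mOsm. The erythroid sum was lower at 450 mOsm in both states, 11.2 to 11.5 against 12.2 to 12.7 without LPS and 10.8 to 11.2 against 12.1 to 12.2 with LPS. The macrophage sum was 15.3 to 15.4 at 450 mOsm against 15.5 to 15.6 at 290 mOsm without LPS, and 15.2 to 15.3 against 15.5 to 15.6 with LPS. The dendritic cell sum was higher at 450 mOsm in both states. It was 15.33 to 15.42 against 15.17 to 15.22 without LPS, and 15.34 to 15.40 against 15.15 to 15.26 with LPS.

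Vcan, the proteoglycan versican and a monocyte marker, had log2 levels of 7.00, 7.40, 6.94 and 7.08 at 290 mOsm, 10.25, 9.97, 9.62 and 9.46 at 450 mOsm, 11.77, 11.69, 11.54 and 11.64 with LPS at 290 mOsm, and 11.81, 11.82, 11.52 and 11.50 with LPS at 450 mOsm. Salt raised it without LPS with no overlap, and with LPS the osmolarities overlapped, an interaction of -2.72 ± 0.20 (SE, adjusted p = 3.13e-08). Ccr2, the receptor of Ccl2 and a monocyte marker, gave -1.30 ± 0.23 (SE, adjusted p = 0.000396), placed at the level with LPS. Of 8 tested monocyte markers 4 were negative and 0 positive, against 10.4% and 10.7% of all tested genes. The log2 of their summed level was 12.6 to 12.6 at 290 mOsm, 12.3 to 12.8 at 450 mOsm, 13.5 to 13.7 with LPS at 290 mOsm and 12.9 to 13.1 with LPS at 450 mOsm, and their part in the result was not tested. Saa3, an acute phase protein, and Cfb, complement factor B, were raised by salt without LPS, and gave -1.90 ± 0.20 (SE, adjusted p = 3.04e-06) and -1.78 ± 0.19 (SE, adjusted p = 4.02e-06). Both had a positive sign on the linear scale. Pdgfb, a platelet-derived growth factor chain, gave 1.99 ± 0.14 (SE, adjusted p = 2.36e-08), and F3, tissue factor, gave 2.19 ± 0.22 (SE, adjusted p = 1.47e-06), both from a lower level at 450 mOsm without LPS. All values of F3 at 450 mOsm, with and without LPS, were under the filter level. Plau, urokinase, gave 1.93 ± 0.15 (SE, adjusted p = 7.23e-08) and was lowered by salt at both levels.

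Over all tested genes the interaction was called for 21.1%, 10.7% positive and 10.4% negative. Heat shock chaperones had 4 positive and 1 negative of 13 (38.5% called), with a list median of 0.10. Genes of p53 and apoptosis had 9 and 3 of 21 (57.1% called), with a list median of 0.02. Of the 9 positive p53 genes, 6 were placed at the level without LPS, against 411 of the 1097 positive genes among all tested. Cytokine receptors and SOCS genes had 7 positive and 5 negative of 30, and cytoskeleton, adhesion and protease genes 6 and 6 of 30 (40% called in each). Nitric oxide, arginine and prostaglandin genes had 2 positive and 4 negative of 14 (42.9% called).

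The other lists had a share called near or under that of all tested genes. The lysosome list had 3 of 27 called, the respiratory chain 3 of 26, ER chaperones 3 of 19 and class II presentation 1 of 10, against 21.1% over all tested genes. Cholesterol efflux had 1 positive and 1 negative of 10, and amino acid genes 4 and 2 of 27. Ribosome biogenesis and Myc had 6 positive and 0 negative of 28 (21.4% called), against 10.7% and 10.4% of all tested genes. Salt alone lowered 21 of the 28, against 23.7% of all tested genes. Myc, a driver of growth, gave 0.57 ± 0.13 (SE, adjusted p = 0.00472). Nop58, a core protein of ribosomal RNA modification, gave 0.65 ± 0.15 (SE, adjusted p = 0.00323), placed at the level without LPS. A called interaction on the log2 scale compares ratios, and 328 called genes had at least 1 group mean under the filter level, where folds are compressed. With 4 arrays in each group, the median SE of an interaction was 0.095 log2, larger than the 0.067 of a salt effect.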

How the data were processed

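RNA of 16 cultures was hybridised to Affymetrix Mouse Gene 1.0 ST arrays, 4 in each group. Per the submitters' processing notes the deposited log2 values were made with RMA in oligo. RMA corrects background, applies quantile normalization and summarises probes, which compresses dim and bright values. For the versions and the build, nothing is given in these sources.

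Of 22549 probe sets, 20646 named 1 gene, 551 several and 1352 none. Probe sets at or under 6.83, the median of all values, on more than 12 of the 16 arrays were dropped, and the probe set with the highest mean was kept for each gene, leaving 10236 genes. Group means were fitted with limma 3.58.1 in R 4.3.3 (lmFit and eBayes, 12 residual and 5.53 prior degrees of freedom). The interaction and the 4 simple effects were contrasts of this fit, with each gene's spread pooled over the 4 groups. P-values were adjusted by Benjamini-Hochberg over all 10236 genes, with 0.05 as the threshold. A called interaction was placed by which salt effects were called at the same threshold, and an uncalled salt effect need not be 0. As an alternative, a gene was placed at 1 level where its salt effect there was at least 2 times the other in size. This gave 850 genes without LPS, 770 with LPS and 541 at both levels, against 764, 690 and 655. By size, 89 of the 764 and 74 of the 690 were at both levels in opposite directions. Errors beside effects are SE. The number of arrays limits the precision. The script was checked on simulated data. Figures were drawn with matplotlib 3.10.9.

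Replicate numbers are mouse numbers per the labels, so they pair the samples. Deviations from group means correlated with a median of 0.0953 over 24 pairs of arrays of the same mouse (-0.146 to 0.433) and -0.0351 over 72 pairs of different mice. The fit with the mouse as a block was an alternative, beside other scalings, filters, variance models, thresholds and left-out arrays and mice.

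Named genes were the 6 largest called interactions of each sign and class with 1 sign in all 4 mice, up to 4 called members of each pathway list with the smallest adjusted p, and a fixed set. Ifit1 and Stat2 fall outside it. Predicted and clone-based genes, small RNAs, and olfactory and vomeronasal receptor genes were left out. The members, lists and rule were chosen with earlier results of these data known. Genes of families with near-identical members, such as Ifit and Mt genes, may share probe signal.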

Additional observations from a re-analysis of the deposited data

Results flagged for a closer look

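In 344 groups of 4 arrays, from 86 of the named genes, 1 array stood apart from the other 3 by Dixon's criterion in 19, or 5.52%, and chance gives about 1 in 20. All values are log2 levels. Replicate 3 at 290 mOsm was low for Egr1 (8.11), Cd200 (7.52), Dnajb4 (8.81) and Hsph1 (9.88). Replicate 3 at 290 mOsm with LPS was high for Egr1 (7.59) and low for Hilpda (7.30) and Pde5a (6.98). Replicate 1 at 290 mOsm with LPS was high for Cd69 (12.3) and Mt1 (12.3) and low for Il1b (13.3). Replicate 4 at 450 mOsm was low for Lcn2 (7.34) and high for Cxcl1 (8.0) and Pde5a (6.06). Single cases were low: Tlr4 at 290 mOsm with LPS, replicate 2 (9.12), Tnfaip3 at 450 mOsm, replicate 2 (8.90), Sc5d at 450 mOsm with LPS, replicate 4 (8.54), Il33 at 290 mOsm, replicate 1 (4.61), Slc5a3 at 290 mOsm, replicate 2 (6.75), and Saa3 at 450 mOsm with LPS, replicate 3 (13.6).

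LPS effects differed between osmolarities, by the interaction test in limma, for 2161 genes, and were called in opposite directions for 140. Of the named genes, 19 were of the latter kind. The LPS effect at 450 mOsm minus that at 290 mOsm was 1.16 for Fosl2, 2.82 for Hilpda, 1.69 for Slc2a1, 0.95 for Mt1, 1.99 for Pdgfb, 2.19 for F3, 3.16 for Chst11, 2.70 for Gpr183, 1.55 for Dnajb4, 0.84 for Hsph1, 0.56 for Slc7a1, 0.82 for Il7r and 0.27 for Gla. For F3 the rise at 450 mOsm, 0.55 ± 0.15 (SE), lay between values that were all under the filter level, where folds are compressed. Gla was not called without mouse 1 (adjusted p = 0.117) or mouse 3 (0.0747). The difference was -1.76 for Cdc42ep3, -1.18 for Nfe2, -1.55 for Mcemp1, -1.39 for Ceacam1, -2.32 for Ifitm6 and -1.62 for Slco4a1.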

How the results depend on the processing

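The count of 2161 called interactions stayed within 1.5 times under other scalings, filters, probe set rules, variance models and array weights, and without any single array, with 1861 to 2518 genes. At an adjusted p under 0.01 it was 1330, with 644 positive, 686 negative and 272 placed at both levels. Over all left-out arrays and mice the range was 1383 to 2266 called, 658 to 1121 positive, 697 to 1149 negative, 503 to 866 placed without LPS and 328 to 679 at both levels, with the lowest values from leaving out mouse 2, or mouse 1 for the negative count. Fewer arrays were fitted there. With the mouse as a fixed replicate block 2359 genes were called, 2115 of them shared with the 2161, and with a random block 2342, including all 2161. The fixed block called Cd86 and changed no other call among the named genes, and the random block changed none.

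On the linear scale, with no test, the sign turned for Ccl17 (2766), Cfb (660), H2-Q4 (43.9), Ly6i (311), Saa3 (520) and Tnf (-70.2). Il1b, not called, ranged from -0.060 to 0.40 over left-out arrays and mice and was -0.024 without mouse 4. The cause was not tested. Dim probe sets limit the folds of genes near or under the filter level.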
